A study of Mus musculus with 4 samples.

Results

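Circular RNAs (circRNAs) from 9 genes of histone methylation and Polycomb repression were examined in primary mouse articular chondrocytes, the resident cells of joint cartilage. A circRNA is a closed RNA loop that forms when the 3′ end of an exon is spliced backwards to an upstream 5′ end, and it was measured by the sequencing reads that cross this back-splice junction. The genes were Setd2, Nsd1, Nsd2, Kmt2a, Dot1l, Ezh2, Suz12, Jarid2 and Asxl2, and a circRNA was counted for a gene when both of its ends lay inside the RefSeq span of that gene. This gave 117 of the 40909 circRNAs in the series, with 20502 junction reads in all. The series has 2 libraries of cells treated with recombinant human interleukin-1β (IL-1β, an inflammatory cytokine) at 10 ng/ml for 24 h. Its other 2 libraries, whose source label names no treatment, are called controls here. The cells were thawed at early passage and grown in serum, and the labels used here give no strain, age or number of animals. The treatment protocol text of the control labels is the same as that of the IL-1β libraries. The controls thus rest on the source label and the sample titles. No label says that libraries of 1 group are separate cultures or animals, and the p-values then cover only library-to-library spread, possibly technical.

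Histone methyltransferases place methyl groups on histones, and the position of the methyl group decides which proteins read it. Marks placed by SETD2, NSD1, NSD2, KMT2A and DOT1L are found over active promoters and transcribed genes. Polycomb repressive complex 2, whose catalytic subunit is EZH2, places the mark of silenced developmental genes. In cartilage, DOT1L is known for its part in keeping the tissue healthy and EZH2 has been studied in osteoarthritis. Most back-spliced circles of such genes are not known to make protein, so the values below describe circles and not the enzymes or their mRNAs.

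The libraries held 895774 and 980542 junction reads with IL-1β against 1198010 and 1203855 in the controls. The 9 genes took 0.592% and 0.453% of these reads with IL-1β against 0.495% and 0.400% in the controls, ranges that overlap. Of 10 chondrocyte marker genes, only Hapln1 had any junction reads (7, in control 2), and Col2a1, Acan, Sox9 and Comp were at 0. Markers of dedifferentiated chondrocytes or fibroblasts had reads in 5 of 8 genes, with summed levels of 66.6 to 102 CPM (normalised counts, junction reads scaled to a common library size with TMM factors) with IL-1β and 146 to 214 CPM in control. All 5 had negative log2 changes (median -0.83) and none passed the test described below. Their part in the results was not tested. Thy1, Fap and Fbn1 of that list were at 0. Of 5 macrophage genes Mrc1 had 32 reads (9 and 8 with IL-1β, 15 in control 1 and 0 in control 2), while Ptprc, Csf1r, Adgre1 and Cd68 were at 0. Of 4 endothelial genes Pecam1 had 8 reads, all in IL-1β 1, while Cdh5, Kdr and Tek were at 0. Of 5 osteoblast genes Runx2 had 1527 reads and was read in all 4 libraries (274 to 418 CPM), and Bglap, Ibsp, Alpl and Sp7 were at 0. All 3 synovial lining genes were at 0. Junction reads show only RNA that forms circles, so the markers give no check of the cell type here. Fewer cells of a type and less RNA per cell cannot be told apart in such bulk libraries.

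The genes differed widely in how much circRNA they gave. Asxl2 led with 9841 junction reads over the libraries, 52nd of 6929 host genes, followed by Nsd2 with 4912 and Ezh2 with 3276. These 3 genes held 87.9% of the reads of the 9. Kmt2a had 815 reads, Setd2 746, Dot1l 542, Suz12 214, Jarid2 82 and Nsd1 74. A back-splice junction is a single position, so its reads were not divided by length, but a gene total adds up a different number of junctions in each gene. In CPM, Asxl2 spanned 2073 to 2774 over the 4 libraries, Nsd2 848 to 2110 and Ezh2 508 to 962, so each overlapped its neighbour over the libraries, although Asxl2 was above Nsd2 and Nsd2 above Ezh2 within each of the 4. Kmt2a (134 to 230), Setd2 (87.6 to 255) and Dot1l (82.7 to 202) overlapped each other and lay below Ezh2. Suz12 (32.8 to 66.8) lay below these, and it overlapped Jarid2 (2.20 to 40.9) and Nsd1 (0 to 36.8).

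**Figure D1:**
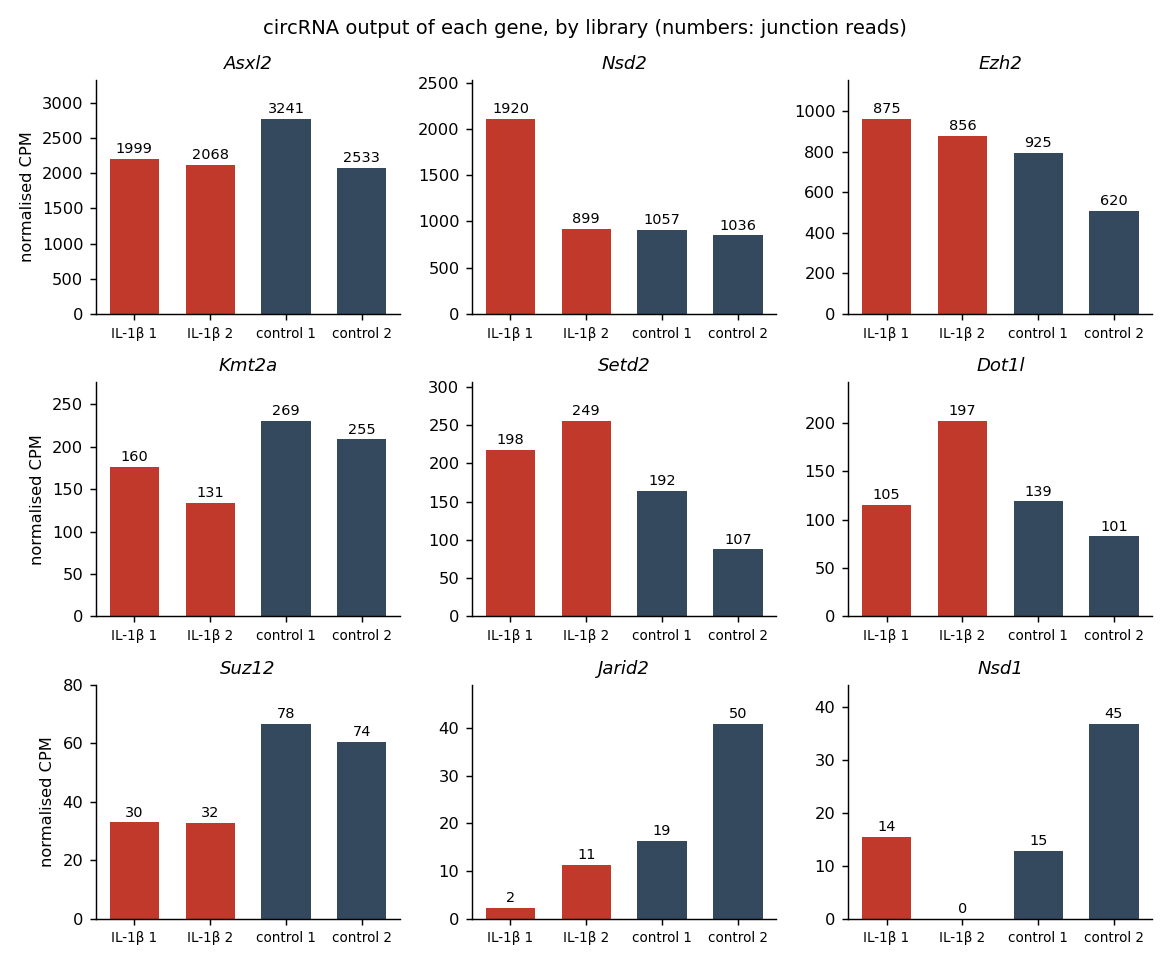
Summed circRNA level of each gene in normalised CPM (y axes, starting at 0, a different scale in each panel) for the 2 IL-1β libraries (red) and the 2 control libraries (dark); the number over each bar is the junction reads behind it. Nsd2 is set apart by 1 library, IL-1β 1, with 1920 reads, and the IL-1β bars lie below both control bars for Kmt2a, Suz12 and Jarid2 and above them for Setd2, Nsd2 and Ezh2.

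No gene and no single circRNA among them passed the test of IL-1β against control. The test was edgeR's quasi-likelihood test with Benjamini-Hochberg adjustment at 0.05, run on every gene or circRNA with at least 20 reads over the 4 libraries. In edgeR 0 of 4878 host genes passed it (0%), with 222 (4.55%) at an unadjusted p under 0.05 (2.09% higher and 2.46% lower with IL-1β), and 46 (0.943%) passed in DESeq2. Of 15333 circRNAs, 3 (0.0196%) passed in edgeR and 101 (0.659%) in DESeq2. None of the former and 1 of the latter came from these genes. All 9 gene totals were tested, with 4 higher and 5 lower with IL-1β and a median log2 change of -0.19, beside -0.03 over all tested host genes. Their adjusted p-values lay between 0.882 and 1.00 in edgeR. Both IL-1β libraries lay above both controls for 3 genes (17.8% of all tested host genes) and below them for 3 (17.8%), so the groups did not overlap for 6 of the 9 (35.5%). With library depth taken instead from SRPBM, the depth-scaled junction signal of the authors, the median of all host genes moved from -0.03 to -0.24, and all 9 genes kept the direction of their change.

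Setd2, whose protein makes the trimethyl mark over transcribed gene bodies, had the largest positive change of the 9 gene totals. Its 17 circRNAs (gene span chromosome 9, 110532500 to 110618633) had 198 and 249 reads with IL-1β against 192 and 107 in the controls. After scaling these were 236 ± 26.6 CPM in the IL-1β group against 126 ± 54.3 CPM in the control group (means ± SD of n = 2), and both IL-1β libraries were above both controls. The log2 change was 0.89 ± 0.36 (SE), with an unadjusted p of 0.0390 and an adjusted p of 0.882 in edgeR. It was the 1 gene of the 9 with an unadjusted p under 0.05, against 4.55% of all tested hosts. With 1 library left out, the log2 change lay between 0.52 (without control 2) and 1.39 (without control 1). With SRPBM depth it was 0.62, with an unadjusted p of 0.234 in edgeR. The groups then stood apart by a small margin (SRPBM of 16.6 in IL-1β 1 against 16.3 in control 1).

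The difference in Setd2 lay largely in its leading circle. The circle circRNA.38517 (chromosome 9, 110573612 to 110574274, plus strand), with ends only 662 bp apart, had 94 and 157 reads with IL-1β against 62 and 43 in the controls. Its level was 132 ± 40.7 CPM with IL-1β against 44.1 ± 12.6 CPM in the controls (n = 2 each), 2.99-fold higher. The log2 change was 1.58 ± 0.45 (SE) with an unadjusted p of 0.0112 and an adjusted p of 0.886 in edgeR, while DESeq2 gave an adjusted p of 0.0472. With 1 library left out, the log2 change lay between 1.21 (without IL-1β 2) and 1.88 (without control 1). Of the 51 tested circRNAs of the 9 genes, 2 had an unadjusted p under 0.05 (3.44% of all tested circRNAs), this one higher (1.83%) and circRNA.5841 of Asxl2 lower (1.62%) with IL-1β. The circle circRNA.38517 made up 47.5% and 63.1% of the Setd2 reads with IL-1β against 32.3% and 40.2% in the controls, so its share was also higher in both IL-1β libraries. The next circle, circRNA.38519, had 37 and 27 reads with IL-1β against 20 and 23 in the controls. For circRNA.38511 the counts were 19 and 19 against 11 and 0. The 3′ end of circRNA.38517, at 110574274, was used by 4 circles that together held 61.3% of the Setd2 reads. The share of this end overlapped between the groups, at 54.0% and 67.9% with IL-1β against 65.1% and 52.3% in the controls. Also with this end, circRNA.38512 had 13 and 0 reads with IL-1β against 35 and 0 in the controls. For circRNA.38515 the counts were 0 and 12 against 21 and 13, so both had lower mean values with IL-1β.

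Nsd1 and Nsd2, related genes whose proteins make the dimethyl form of the same mark, gave very different amounts of circRNA. Nsd2 had 18 circRNAs in a gene span at chromosome 5, 33820676 to 33897966, and 1 of them held 92.4% of its reads. That circle, circRNA.30308 (33843112 to 33846267, plus strand), had 1761 and 843 reads with IL-1β against 1025 and 912 in the controls, and ranked 106th of all circRNAs. IL-1β 1 was at 1936 CPM, while the other 3 libraries lay between 746 and 877 CPM. For the Nsd2 total the mean was 1516 ± 841 CPM with IL-1β against 876 ± 40.1 CPM in the controls (n = 2 each), a log2 change of 0.76 ± 0.35 (SE) with an adjusted p of 0.882 in edgeR. Without IL-1β 1 the log2 change was 0.038, so the difference rests on that library. The groups did not overlap with TMM scaling by a small margin (921 CPM in IL-1β 2 against 905 CPM in control 1). With SRPBM depth, under which IL-1β 2 lay below control 1, they did.

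The other Nsd2 circles were few in reads. Next came circRNA.30315 (33854610 to 33855736) with 48, 28, 0 and 46 reads in IL-1β 1, IL-1β 2 and the controls 1 and 2. In the same order circRNA.30309, which shares the 5′ end of the leading circle, had 39, 22, 0 and 22. Control 1 thus had 0 reads for both, and its Nsd2 reads came from the leading circle in 97.0% of cases against 88.0% in control 2. A count of 0 allows up to 3 reads in a library, or 2.57 CPM in control 1, by counting error only. The 5′ end at 33843112 was used by 5 circles with 95.4% of the Nsd2 reads. Among the 859 host genes with at least 10 circRNAs and 500 reads, the main 5′ end held a median of 56.8% of the reads, and 32 hosts exceeded Nsd2. Its leading circle alone held a larger share than that of all but 7 of these hosts, whose median was 42.4%.

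Nsd1 (chromosome 13, 55209782 to 55318325) had only 5 circRNAs, with 14 and 0 reads with IL-1β against 15 and 45 in the controls. No Nsd1 circle was read in more than 2 libraries. Its leading circles were circRNA.7645, with 11 reads in IL-1β 1 and 15 in control 1, and circRNA.7647 with 26 reads in control 2 alone. A further circle, circRNA.7648 with 17 reads in control 2 alone, lay on the minus strand, against the other 4. The groups overlapped with TMM scaling. With SRPBM depth the IL-1β libraries lay below the controls by a small margin (SRPBM of 1.17 in IL-1β 1 against 1.27 in control 1). The log2 change of the total had an SE of 1.82 around -1.73. It was -0.71 without control 2, -0.74 without IL-1β 2, -2.27 without control 1 and -1.25 without the minus-strand circle. Without IL-1β 1 the IL-1β group has 0 reads, and the fitted value of -7.84 is no bound.

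Kmt2a, which encodes a methyltransferase that marks active promoters and regulates Hox genes, had lower values with IL-1β in both libraries. Its 11 circRNAs, from the minus strand of chromosome 9 (44803355 to 44881352), had 160 and 131 reads with IL-1β against 269 and 255 in the controls. The levels were 155 ± 29.4 CPM with IL-1β against 219 ± 15.2 CPM in the controls (n = 2 each), 1.42-fold lower. The log2 change was -0.53 ± 0.31 (SE) with an adjusted p of 0.882 in edgeR, and between -0.74 and -0.34 with 1 library left out.

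The 2 main Kmt2a circles exchanged places within the control group. They share the 3′ end at 44828784, and their 5′ ends lie at 44829271 (circRNA.39350, ends 487 bp apart) and 44831397 (circRNA.39351, 2613 bp). In control 1 the shorter had 122 reads and the longer 52, and in control 2 the shorter had 42 and the longer 130. The IL-1β libraries had 65 and 49 reads (IL-1β 1) and 48 and 35 (IL-1β 2) for the shorter and the longer. As a share of Kmt2a reads the shorter circle stood at 45.4% (95% Wilson interval 39.5 to 51.3) in control 1 and 16.5% (12.4 to 21.5) in control 2. With IL-1β it stood at 40.6% (33.3 to 48.4) and 36.6% (28.9 to 45.2). These intervals cover counting error only, since PCR copies are not independent molecules. The controls thus lay on either side of the IL-1β libraries. The third circle, circRNA.39349, had 12 and 21 reads with IL-1β against 24 and 47 in the controls.

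Dot1l encodes the one methyltransferase of the 9 genes that acts on the histone core rather than its tail and has no SET domain. It had 10 circRNAs (chromosome 10, 80755101 to 80795461) with 105 and 197 reads with IL-1β against 139 and 101 in the controls, and the groups overlapped. The levels were 159 ± 61.2 and 101 ± 25.7 CPM (n = 2 each), a log2 change of 0.63 ± 0.41 (SE) with an adjusted p of 0.882 in edgeR. Without IL-1β 2 the log2 change was 0.18. Its 3 main circles combine 2 5′ ends with 2 3′ ends. From 80766163 to 80771366, circRNA.1782 had 46 and 81 reads with IL-1β against 43 and 52 in the controls. From 80764602, circRNA.1778 had 18, 44, 42 and 32 reads in the libraries IL-1β 1 and 2 and control 1 and 2. From the same 5′ end circRNA.1775 had 19, 53, 19 and 17. IL-1β 2 held the highest count of each of the 3 circles. The log2 change of circRNA.1778 was 0.063 with TMM scaling and -0.21 with SRPBM depth.

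Ezh2, the catalytic subunit of Polycomb repressive complex 2, gave 17 circRNAs (chromosome 6, 47530274 to 47595270, minus strand). They had 875 and 856 reads with IL-1β against 925 and 620 in the controls. After scaling these were 920 ± 59.7 CPM with IL-1β against 650 ± 201 CPM in the controls (n = 2 each), 1.42-fold higher, with both IL-1β libraries above both controls. The log2 change was 0.48 ± 0.24 (SE) with an adjusted p of 0.882 in edgeR. Control 2 was the lowest library, and the log2 change was 0.22 without it and 0.82 without control 1. With SRPBM depth the groups overlapped and the log2 change was 0.23.

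The leading Ezh2 circle was short. It was circRNA.32770 (47576536 to 47577667, ends 1131 bp apart), with 528 and 527 reads with IL-1β against 533 and 426 in the controls, and it held 61.5% of the Ezh2 reads. Its log2 change was 0.48 ± 0.25 (SE), with an adjusted p of 0.886 in edgeR. A companion, circRNA.32772, starts at the same 5′ end and stops 27 nt earlier, and it had 74 and 110 reads with IL-1β against 71 and 96 in the controls. Its share of the pair was 12.3% and 17.3% with IL-1β and 11.8% and 18.4% in control, so it did not separate the groups. Farther along the gene, circRNA.32764 (47551732 to 47558294) had 128 and 105 reads with IL-1β against 103 and 45 in the controls. Next to it, with a 3′ end shifted by 15 nt, circRNA.32762 was read 31 and 17 times with IL-1β against 10 and 0 in the controls. Its share of that pair was 19.5% and 13.9% with IL-1β and 8.85% and 0% in control. These shares did not overlap between the groups, but they rest on few reads and were not tested. The ends of both pairs lay farther apart than the 5 nt within which junctions were summed as an alternative. The circle circRNA.32765 joins the 5′ end of the leading circle to the 3′ end of circRNA.32764. It had 52 and 50 reads with IL-1β, 95 in control 1 and 32 in control 2, and was highest in control 1.

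**Figure D2:**
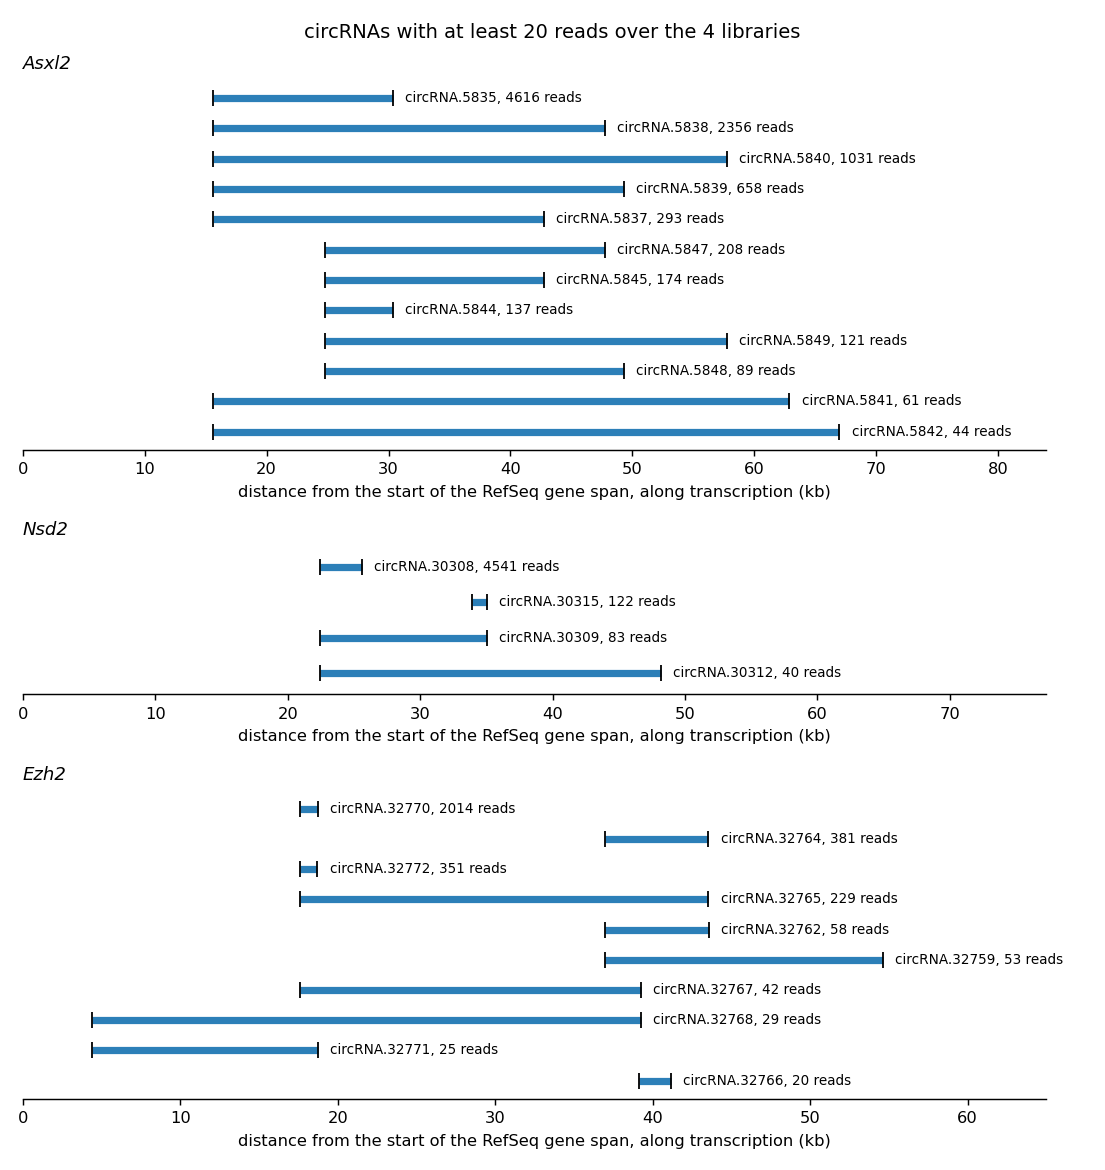
Position of the circRNAs with at least 20 reads in Asxl2, Nsd2 and Ezh2, drawn to scale as the distance of both ends from the start of the RefSeq gene span in kb along transcription (x axis), with 1 line per circRNA ordered by reads over the 4 libraries. Asxl2 circles leave from 2 shared 5′ ends, 7 of the 12 drawn from the first, while nearly all Nsd2 reads belong to circRNA.30308 with 4541 reads.

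Suz12 and Jarid2, a core and an accessory subunit of the same complex, had few circRNA reads, and both totals were lower in both IL-1β libraries. Suz12 (chromosome 11, 79993106 to 80034123) had 30 and 32 reads with IL-1β against 78 and 74 in the controls. The levels were 32.9 ± 0.125 and 63.7 ± 4.38 CPM (n = 2 each), 1.94-fold lower. The log2 change was -0.98 ± 0.57 (SE) with an adjusted p of 0.882 in edgeR, and it stayed between -1.02 and -0.92 with 1 library left out. None of the 14 Suz12 circles was read in more than 2 libraries. The circle circRNA.4482 (79995617 to 80015236) was not read with IL-1β (0 and 0 reads) but had 29 and 11 reads in the controls, at least 5.31-fold lower against a floor of 3 reads per library, and at least 2.83-fold lower without control 1. For circRNA.4488 the counts were 0 and 0 against 14 and 13, at least 3.55-fold lower, and for circRNA.4489 they were 0 and 0 against 11 and 14, at least 3.28-fold lower. In the opposite direction circRNA.4491 (80019679 to 80025954) had 19 and 9 reads with IL-1β but 0 in each control, at least 5.99-fold higher, and at least 3.67-fold higher without IL-1β 1. These bounds cover counting error only and leave out that a circle may be missed in 1 library.

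Jarid2 (chromosome 13, 44730774 to 44921643) had 2 and 11 reads with IL-1β against 19 and 50 in the controls, over 5 circRNAs. The log2 change of the total was -2.12 ± 1.41 (SE) with an adjusted p of 0.882 in edgeR, and it lay between -3.68 and -1.26 with 1 library left out. Its leading circle, circRNA.7446 (44823380 to 44884880), was not read with IL-1β (0 and 0 reads) but had 10 and 22 reads in the controls, at least 4.17-fold lower, and at least 2.69-fold lower without control 2. From the same 5′ end circRNA.7445 had 21 reads in control 2 alone. The third, circRNA.7449, had 11 reads in IL-1β 2 and 9 in control 1.

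Such gaps were common among circles with few reads. Of all tested circRNAs, 15.8% had 0 reads in both libraries of 1 group, and of those with 20 to 60 reads 30.1% did. For the 9 genes, 25 circRNAs had 20 to 60 reads, and 11 of these were at 0 in 1 group, 9 with IL-1β and 2 in control. Circles that pass a read minimum through the group where they are high had to differ, so this count supports no direction. None of the 9 gene totals was at 0 in both libraries of a group, as 5.68% of all tested host genes were.

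Asxl2 encodes a Polycomb group protein that binds the histone deubiquitinase BAP1, and it was the richest source of circRNA among the 9 genes. Its 20 circRNAs (chromosome 12, 3426857 to 3510811) had 1999 and 2068 reads with IL-1β against 3241 and 2533 in the controls. The levels were 2158 ± 54.9 CPM with IL-1β against 2424 ± 496 CPM in the controls (n = 2 each), and the groups overlapped. The log2 change was -0.19 ± 0.18 (SE) with an adjusted p of 1.00 in edgeR. It was 0.018 without control 1, the highest library.

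Nearly all Asxl2 reads came from circles that left from 1 of 2 5′ ends. The first, at 3442474 and 15617 bp into the gene span, was used by 8 circles with 92.1% of the reads, between 89.6% and 94.1% in each library. Of the 859 hosts compared above, 67 had a larger share at their main 5′ end. The second 5′ end, at 3451662, lies 9188 bp downstream and was used by 6 circles with 7.43% of the reads. Both ends were joined to the same 5 3′ ends. With the nearest 3′ end the first gave circRNA.5835 (3442474 to 3457209) with 4616 reads, and the second gave circRNA.5844 with 137. At the end 3474613 the reads were 2356 for circRNA.5838 and 208 for circRNA.5847. The end at 3484608 gave 1031 reads for circRNA.5840 and 121 for circRNA.5849, and the end at 3476169 gave 658 for circRNA.5839 and 89 for circRNA.5848. At 3469593 they were 293 for circRNA.5837 and 174 for circRNA.5845. The second 5′ end thus took 2.88% of the pair at the nearest 3′ end and 37.3% at 3469593. For the pair at 3469593 the share lay between 26.7% and 45.5% in every library. At 3476169 it was 0% and 3.70% with IL-1β against 23.1% and 13.5% in the controls, and in the other pairs the groups overlapped. The circle circRNA.5848 had 0 and 6 reads with IL-1β against 52 and 31 in the controls, with an adjusted p of 0.886 in edgeR.

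The groups overlapped for the leading Asxl2 circle. The longer circles circRNA.5838, circRNA.5840 and circRNA.5841 had lower mean values with IL-1β without passing the test. For circRNA.5839 and circRNA.5837, also longer and from the same 5′ end, the log2 changes were -0.038 and 0.024. The mean of circRNA.5839 was thus also lower with IL-1β, though only slightly (151 against 155 CPM). Longer still, circRNA.5842 (3442474 to 3493839) had 0 and 0 reads with IL-1β against 44 and 0 in the controls. The counts of circRNA.5835 were 917 and 1185 with IL-1β against 1435 and 1079 in the controls, a log2 change of 0.074 ± 0.25 (SE) with TMM scaling and -0.19 with SRPBM depth. For circRNA.5838 they were 531 and 391 against 812 and 622, a log2 change of -0.29 ± 0.30, and the groups overlapped in CPM. For circRNA.5840 they were 205 and 138 against 405 and 283, with both IL-1β libraries below both controls in CPM (141 to 225 against 232 to 347). Its log2 change was -0.66 ± 0.36 with an adjusted p of 0.886 in edgeR. The circle circRNA.5841 (3442474 to 3489733) was not read with IL-1β (0 and 0 reads) but had 52 and 9 reads in the controls. Its level was at least 8.14-fold lower, with an unadjusted p of 0.0314 and an adjusted p of 0.886 in edgeR. That bound rests on control 1: without it the level was at least 2.31-fold lower, and too few reads remained for the test, while without control 2 it was at least 14.0-fold lower. The share of circRNA.5835 in Asxl2 reads was 57.3% in IL-1β 2 (95% Wilson interval 55.2 to 59.4) against 45.9% (43.7 to 48.1) in IL-1β 1. It was 44.3% and 42.6% in the controls, so the higher share was that of a single library.

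**Figure D3:**
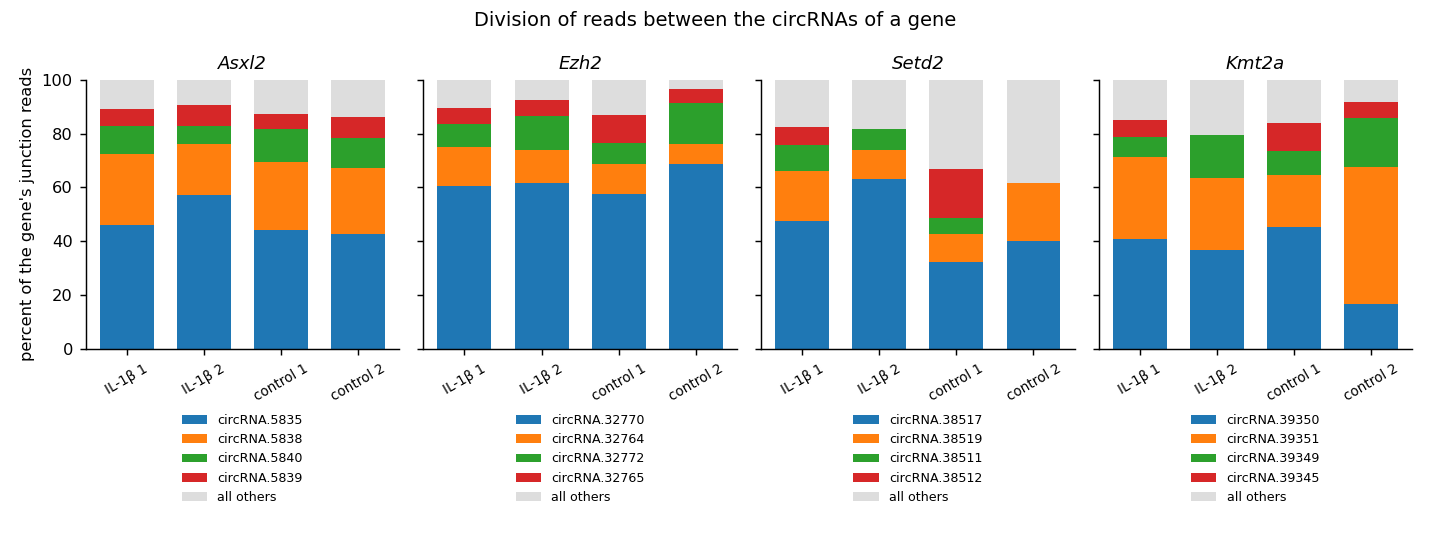
Percent of the junction reads of Asxl2, Ezh2, Setd2 and Kmt2a (y axis, 0 to 100) that belong to each of the 4 circRNAs with the most reads, in each of the 4 libraries; grey is all other circRNAs of the gene. The leading Setd2 circle takes 47.5% and 63.1% with IL-1β against 32.3% and 40.2% in control, and the 2 main Kmt2a circles swap order in control 2.

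The size and detection of the circles are given here beside those of all circRNAs. The median distance between junction ends was 9524 bp, from 327 to 116708 bp, beside 10422 bp for all circRNAs with a host gene. They covered a median of 13.4% of the gene span, beside 14.0%, and their 5′ ends lay in the first 25% of the span in 21.4% of cases, beside 24.3%. Of the 117, 22 (18.8%) were read in all 4 libraries and 67 (57.3%) in a single library, beside 17.1% and 57.9%. These 22 held 91.1% of the reads of the 9 genes. All 15 with at least 200 reads were read in every library, with log2 changes between -0.75 and 1.58. Of the 51 tested, 24 were higher and 27 lower with IL-1β (median log2 change -0.09), beside a median of -0.05 for all tested circRNAs. The groups did not overlap for 21 of them (33.5% of all tested circRNAs), with both IL-1β libraries above both controls for 11 (16.4%) and below for 10 (17.2%). None of the 117 lay inside a further gene. These comparisons are descriptions without a test.

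**Figure D4:**
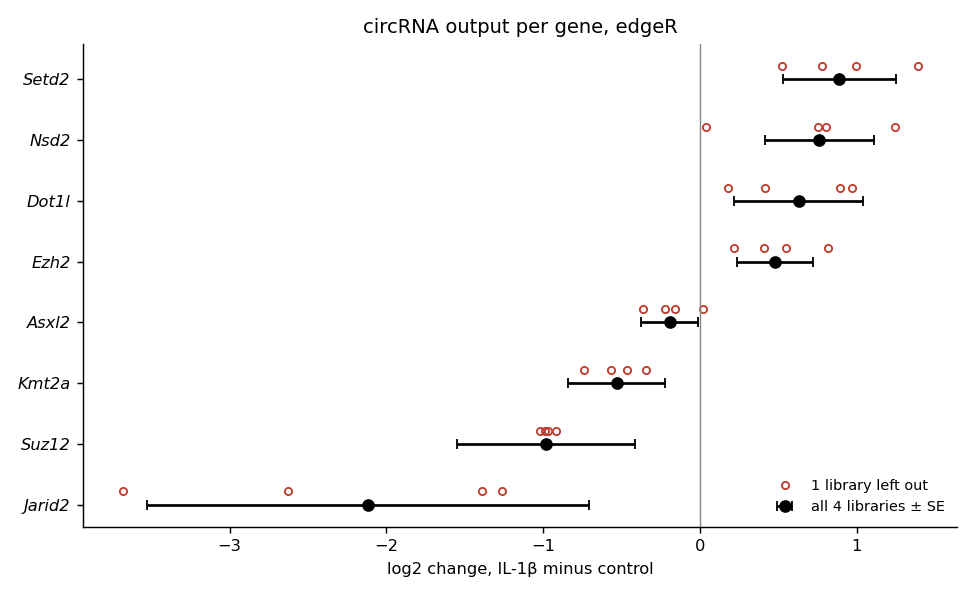
Log2 change of the summed circRNA reads with IL-1β relative to control (x axis) for 8 genes in edgeR, with bars of 1 standard error (black) and the value with each library left out in turn (red circles); Nsd1 is not drawn because 1 IL-1β library had 0 reads. The value for Nsd2 is 0.038 without IL-1β 1, and that for Suz12 stays between -1.02 and -0.92.

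In 4 lists of other genes of histone methylation and Polycomb, 0 passed the test in edgeR. Of 39 other lysine methyltransferases and relatives, 22 were tested, 9 with a positive and 13 with a negative log2 change (median -0.08). Setd3, an actin histidine methyltransferase, had 8444 reads and Ehmt1, a methyltransferase of repressive chromatin, 6522, and their log2 changes were -0.091 and -0.061. Ezh1, the close relative of Ezh2, was not read with IL-1β (0 and 0 reads) but had 7 reads in control 1 and 44 in control 2, a level at least 6.59-fold lower with an adjusted p of 0.882 in edgeR, and at least 1.88-fold lower without control 2. Leaving out control 1 instead gave at least 11.3-fold lower. The relatives Kmt2b, Suv39h1 and Suv39h2 had 0 junction reads.

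Of 27 partners of the KMT2 and DOT1L complexes, 16 were tested, 7 positive and 9 negative (median -0.08). Mllt10, a DOT1L partner, stood at 1471 ± 75.1 CPM with IL-1β and 1190 ± 61.9 in control (n = 2 each), a log2 change of 0.28 ± 0.18 (SE) with an adjusted p of 0.882 in edgeR. Aff1 had 1694 reads and a log2 change of -0.085. Ncoa6 had 731 reads and a log2 change of 0.61 that was 0.081 without IL-1β 1. Aff3 had 23 and 15 reads with IL-1β but 0 in each control, at least 8.09-fold higher, with an adjusted p of 0.882 in edgeR. Without IL-1β 1 it was at least 6.12-fold higher.

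Of 41 other Polycomb genes, 19 were tested, 9 positive and 10 negative (median -0.02), and 16 had 0 reads, Bmi1 and the 5 Cbx genes listed among them. Aebp2, which encodes an accessory subunit of the EZH2 complex, led with 12690 reads. It had 2768 and 2402 reads with IL-1β against 4883 and 2637 in the controls, and its log2 change of -0.22 was 0.31 without control 1. The log2 changes of Scmh1 (4758 reads) and Sfmbt2 (2619 reads) were -0.11 and -0.019. That of Sfmbt2 was 0.030 with library totals. Pcgf5, a subunit of a Polycomb repressive complex 1 variant, had 36 and 13 reads with IL-1β but 0 in each control, at least 10.5-fold higher, with an adjusted p of 0.882 in edgeR and 0.0482 in DESeq2. Without IL-1β 1 it was at least 5.30-fold higher. Pcgf5, Aff3 and Ezh1 each reached the read minimum through 1 group alone, so they had to differ. Their bounds and p-values therefore support no direction. Of all tested host genes, 5.68% had 0 reads in both libraries of 1 group. Of 9 arginine methyltransferases, 6 were tested, 2 positive and 4 negative (median -0.18). Prmt3, Prmt2 and Carm1 had 1865, 525 and 474 reads and log2 changes of -0.10, -0.30 and -0.27.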

How the data were processed

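Ribosomal RNA depletion, RNase R digestion of linear RNA and strand-specific library preparation came before sequencing, per the labels' protocols. The deposited table gives counts of back-splice junction reads (whole numbers, 1 column per library, per the file headers). Beside them the authors deposited a signal scaled for depth, SRPBM, which equals the counts divided by 1 constant per library. The submitters' processing notes name mm10 and Bowtie2. The sources used here do not name the circRNA caller or its filters.

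Coordinates are the authors' (mm10). Genes are RefSeq spans of the same assembly, GRCm38.p6, with a tolerance of 1 bp. The table used holds no exons, so exon or intron is not stated. No genome sequence was used here. A circRNA outside the 9 genes was assigned to the single coding gene that held both of its ends, or, where no coding gene did, to the single gene of another kind. The 9 genes and the lists were chosen with earlier results of these data known. The 3 circRNAs with the most reads of each gene, the 3 most-read hosts of each list, and any with an unadjusted p under 0.05 were named; other circles, which share an end with these, lie within 30 nt of one or join a shared Asxl2 3′ end, and the genes named at 0 reads were chosen after their values were seen. One gene that this rule names is not reported here.

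Counts were tested with edgeR 4.0.16 in R 4.3.3 (TMM, no covariate, at least 20 reads), and with DESeq2 1.42.0 as an alternative. The SE of a log2 change was taken from its F statistic (change over the root of F). CPM of circles and gene totals use the TMM factors of the circRNA fit. Python 3.11.15 and scipy 1.17.1 gave the other values. The alternatives were RLE factors, library totals, SRPBM depth, DESeq2, other read minimums, a replicate block, each library left out, junctions within 5 nt summed, and keeping only circles that lay in exactly 1 coding gene and on its majority strand.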

Additional observations from a re-analysis of the deposited data

How the results depend on the processing

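The 3 circRNAs past edgeR's test over the whole table became 101 in DESeq2, 61 without a read minimum, 61 with the replicate block, 0 with at least 50 reads and 0 with junctions within 5 nt summed, and 0 to 4 with 1 library left out. The 0 host genes became 46 in DESeq2, 12 without a read minimum, 21 with the replicate block and 0 to 2 with 1 library left out. Of the 9 genes and their circRNAs, circRNA.38517 of Setd2 in DESeq2 was the only one called under any alternative. Of the circRNAs at an unadjusted p under 0.05, SRPBM depth gave 123 higher against 347 lower, and TMM gave 280 against 248.

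Equal replicate numbers carry no stated pairing, and deviations of equal numbers correlated at 0.03 over host genes, so the block was not used beside single results. Directions reversed as follows, and the cause was not tested. With SRPBM depth circRNA.5835 stood at -0.19 and circRNA.1778 at -0.21. With the replicate block circRNA.1778 stood at -0.029, and with library totals Sfmbt2 at 0.030. With 1 library left out, log2 changes ranged from -0.36 to 0.018 for Asxl2, -0.14 to 0.30 for circRNA.5835, -0.67 to 0.52 for circRNA.1778, -0.44 to 1.52 for circRNA.7449, -0.79 to 0.78 for circRNA.39350, -1.27 to 0.011 for circRNA.39351 and -1.08 to 0.90 for circRNA.7645. They ranged from -0.34 to 0.13 for Setd3, -0.20 to 0.11 for Ehmt1, -0.18 to 0.018 for Aff1, -0.60 to 0.31 for Aebp2, -0.29 to 0.13 for Scmh1, -0.19 to 0.21 for Sfmbt2, -0.43 to 0.34 for Prmt3 and -0.996 to 0.17 for Prmt2.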
